A study of Homo sapiens with 9 samples.

Results

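The clustered protocadherins are cell surface proteins of the cadherin superfamily, and their genes stand in tandem in 3 neighbouring clusters on chromosome 5. They were chosen by symbol, as the protein coding genes of the deposited count table whose names begin with PCDHA, PCDHB or PCDHG, which gave 53 of 60664 genes. These are 13 alpha genes, 16 beta genes, 12 gamma-A genes, 7 gamma-B genes and 5 C-type genes (PCDHAC1, PCDHAC2, PCDHGC3, PCDHGC4 and PCDHGC5). The rule itself uses no measured value, but it was chosen with earlier results of these data known. The genes were measured in Huh-7, a human hepatocellular carcinoma cell line, by stranded mRNA sequencing. The study compared WT cells with cells that lack vtRNA1-1 (1-1 KO) or vtRNA1-2 (1-2 KO), which are small non-coding vault RNAs, with 3 libraries per line. WT and 1-1 KO cells came from another laboratory, and 1-2 KO cells were a single cell clone derived from the WT cells with Cas9 and paired guides, and each knockout therefore stands for 1 line. All lines were grown to a near-confluent state in serum-containing medium. The study calls the libraries of a line biological replicates, but neither it nor the labels say that they came from separate cultures, so p-values measure the spread between these libraries, which may be technical. A difference between a knockout and WT cannot be told apart from a difference between these particular lines.

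Each alpha and gamma gene has its own promoter and its own large first exon, which encodes the extracellular cadherin repeats, the transmembrane stretch and part of the cytoplasmic tail, and this exon is spliced to short exons that the whole cluster shares. Beta genes consist of a single coding exon and lack the shared exons. Individual neurons express different subsets of these genes, with promoter choice governed by DNA methylation and by DNA looping that involves CTCF and cohesin, and the proteins bind the same isoform on adjoining cells. C-type genes differ in sequence from the rest and are less dependent on random promoter choice.

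On GRCh38, the alpha cluster spans chr5:140786136-141012347, the beta cluster chr5:141051374-141249365 and the gamma cluster chr5:141330514-141512977, with every member on the plus strand. The vault RNA genes lie on the same strand just before them. VTRNA1-1 ends 74.8 kb and VTRNA1-2 ends 67.1 kb before the start of PCDHA1. The 2 deleted genes had 1 count and 0 counts over all 9 libraries, so that these mRNA libraries do not check the deletions.

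Promoter windows of 300 bases, from 250 before to 50 after the gene start, were found in RefSeq (GRCh38.p14) for 47 of the 53 members. PCDHA3, PCDHA13, PCDHB6, PCDHB11, PCDHGA12 and PCDHGC5 had no entry. The stretches below show in capitals a short element found in most alpha, beta or gamma-A promoters. The gamma-A element was found in 3 of 7 gamma-B promoters. The 7 letters TGTCGCT stood on the plus strand in 10 of 11 alpha promoters, from 84 to 41 bases before the start, and in 1.18% of all 27305 genes with a promoter. They were also found in 3 of 11 gamma-A promoters (PCDHGA3, PCDHGA4 and PCDHGA5) and in PCDHB4. The 4 alpha members shown are PCDHA1, which had no counts, PCDHA2 and PCDHA4, which were expressed, and PCDHA8, which had few counts.
PCDHA1 chr5:140786079-140786125: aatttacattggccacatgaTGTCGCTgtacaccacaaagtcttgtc
PCDHA2 chr5:140794774-140794820: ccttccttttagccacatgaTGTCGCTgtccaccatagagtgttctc
PCDHA4 chr5:140806972-140807018: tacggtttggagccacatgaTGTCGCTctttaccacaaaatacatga
PCDHA8 chr5:140841123-140841169: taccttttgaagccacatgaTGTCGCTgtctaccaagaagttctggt

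The letters GGTGGCGCT stood on the plus strand in 13 of 14 beta promoters, from 84 to 2 bases before the start, and in 0.374% of all genes. They contain GGCGCT, the end of the CTCF motif, which was found on the plus strand in the same 13 promoters and in 14.8% of all genes. PCDHB1, which had no counts in any library, was the beta gene without either. The members shown are the most abundant (PCDHB3 and PCDHB5), those with the largest ratios between lines (PCDHB10 and PCDHB12), and the pair PCDHB8 and PCDHB13, whose stretches differed at 1 of the 29 bases compared. The stretch of PCDHB5 ends at the gene start, and that of PCDHB8 at the end of the element, which begins 2 bases before the start.
PCDHB3 chr5:141100384-141100432: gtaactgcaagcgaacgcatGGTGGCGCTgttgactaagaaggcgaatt
PCDHB5 chr5:141135170-141135205: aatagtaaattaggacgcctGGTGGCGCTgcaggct
PCDHB8 chr5:141177768-141177796: aagatcctgtgaggacccgtGGTGGCGCT
PCDHB10 chr5:141192290-141192338: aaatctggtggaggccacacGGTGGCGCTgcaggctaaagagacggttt
PCDHB12 chr5:141208634-141208682: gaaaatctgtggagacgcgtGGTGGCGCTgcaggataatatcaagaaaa
PCDHB13 chr5:141213856-141213904: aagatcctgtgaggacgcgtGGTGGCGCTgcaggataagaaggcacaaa

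The letters CGCTGTT stood on the plus strand in 10 of 11 gamma-A promoters, in 3 of 7 gamma-B promoters (PCDHGB2, PCDHGB4 and PCDHGB5), in the beta gene PCDHB3 and in 1.47% of all genes. The 3 elements in capitals were picked after the sequences were seen, and they overlap each other in part. Of the motifs searched besides, on both strands, the core of the CTCF motif was present in 1 of 47 members, PCDHB9, and in 12.7% of all genes, and TATAAA in 6 of 47 members and 14% of all genes. The CTCF core was searched as an exact match to 1 pattern, and stretches that differ from it at a fixed base were not counted. Whether these promoters hold CTCF sites that differ from the pattern was not tested. The end of the CTCF motif was found in most beta promoters, as given above. The gamma members shown had the largest changes or levels, and PCDHGB4 and PCDHGB5 differed at 1 of 47 bases.
PCDHGA2 chr5:141338699-141338745: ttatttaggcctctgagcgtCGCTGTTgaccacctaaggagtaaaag
PCDHGA3 chr5:141343763-141343809: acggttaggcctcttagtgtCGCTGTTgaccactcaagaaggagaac
PCDHGB4 chr5:141387613-141387659: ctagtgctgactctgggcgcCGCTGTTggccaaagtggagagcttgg
PCDHGB5 chr5:141397859-141397905: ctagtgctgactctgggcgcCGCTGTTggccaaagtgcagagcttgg
PCDHGA10 chr5:141412927-141412973: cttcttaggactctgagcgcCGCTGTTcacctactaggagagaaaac

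The shared exons bear on what a count means here. The 15 members of the alpha cluster share 3 stretches of exon of 59, 89 and 2721 nt (chr5:140978949-140979007, chr5:140982475-140982563 and chr5:141009627-141012347), and the 22 members of the gamma cluster share 3 of 59, 89 and 2029 nt (chr5:141494807-141494865, chr5:141505393-141505481 and chr5:141510947-141512975). PCDHA1 and PCDHAC2 include the shared alpha exons and were at 0 in all 9 libraries, so that reads in those exons were not given to every member. Levels between genes were therefore compared per kb of exon that no other gene on the strand covers. The first exons also resemble each other. Of the 50-base windows in such exons, 45.3% in PCDHB8 and 35.3% in PCDHB10 occurred elsewhere in the clusters, and 0% in PCDHGB3 and PCDHGC3. The share was 23.6% in PCDHB13, 21.3% in PCDHGB4, 19.6% in PCDHGB5 and 19.5% in PCDHB3. Whether reads that match several places were counted is not given in the sources used here. Values of PCDHB8 and PCDHB10 are more uncertain for it, and those of the other members with repeated windows to a lesser degree.

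Total counts were between 32384469 and 41782387 per library. The library of 1-2 KO replicate 1 stood apart from the other 1-2 KO libraries on the third principal component (-10.6 against 5.47 and 6.08), which held 3.44% of the variance. On the same component WT replicate 3 stood apart from the other WT libraries (-7.62 against 4.58 and 1.65). The counts of members called are given below without each of them. All 9 hepatocyte markers were detected, with summed levels from 14236 to 15105 CPM in WT, 29822 to 30719 in 1-1 KO and 20932 to 22865 in 1-2 KO. Of 8 neuronal markers, 4 exceeded 3 counts in some library (sums 90.9 to 95.3, 37.5 to 38.2 and 107 to 111 CPM), and RBFOX3, STMN2, NEFL and SYN1 did not. Among the 4 expressed markers, 1-1 KO had 2 upregulated and 2 downregulated and 1-2 KO had 1 and 3, and the low sum in 1-1 KO followed MAP2 (65.8 to 2.81 CPM). All 7 fibroblast markers exceeded 3 counts somewhere (sums 191 to 202, 302 to 317 and 122 to 131 CPM). Of the 6 that were tested, 4 were upregulated and 0 downregulated in 1-1 KO and 4 and 2 in 1-2 KO, where the sum followed LUM (157 to 62.1 CPM). Over all tested genes, 63.4% were called in either direction in 1-1 KO and 54.4% in 1-2 KO. The part of the marker shifts in the protocadherin levels was not tested. In bulk RNA, fewer cells of a kind and less RNA per cell cannot be told apart.

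A member was tested when it had about 10 counts in at least 3 libraries (edgeR's filterByExpr), which held for 34 of the 53 members. These were 3 of 13 alpha genes (PCDHA2, PCDHA3, PCDHA4), 13 of 16 beta genes, 10 of 12 gamma-A genes, all 7 gamma-B genes, and PCDHGC3 alone of the 5 C-type genes. Of the 19 members not tested, PCDHA1, PCDHAC2 and PCDHB1 had 0 counts in all 9 libraries, which for each gene allows up to 3 counts per library, and 13 in all had at most 3 counts in every library. The untested alpha genes with more were PCDHA5 (at most 6) and PCDHA8. PCDHA8 had 0, 0 and 1 counts in WT, 0, 7 and 1 in 1-1 KO, and 5, 6 and 2 in 1-2 KO, a ratio of 11.6 between the sums of 1-2 KO and WT (95% counting interval 1.74 to 493, exact binomial). PCDHB7 had 1 to 17 counts and PCDHB15 0 to 12. PCDHGA12 had 2 counts over the WT libraries and 14 over the 1-1 KO libraries, a ratio of 6.13 (1.41 to 55.6). PCDHGA8 was at 0 in WT and at 2 or 3 counts in each knockout library, and the remaining C-type genes PCDHAC1, PCDHGC4 and PCDHGC5 never exceeded 4. Such intervals and floors cover counting error only.

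**Figure D1:**
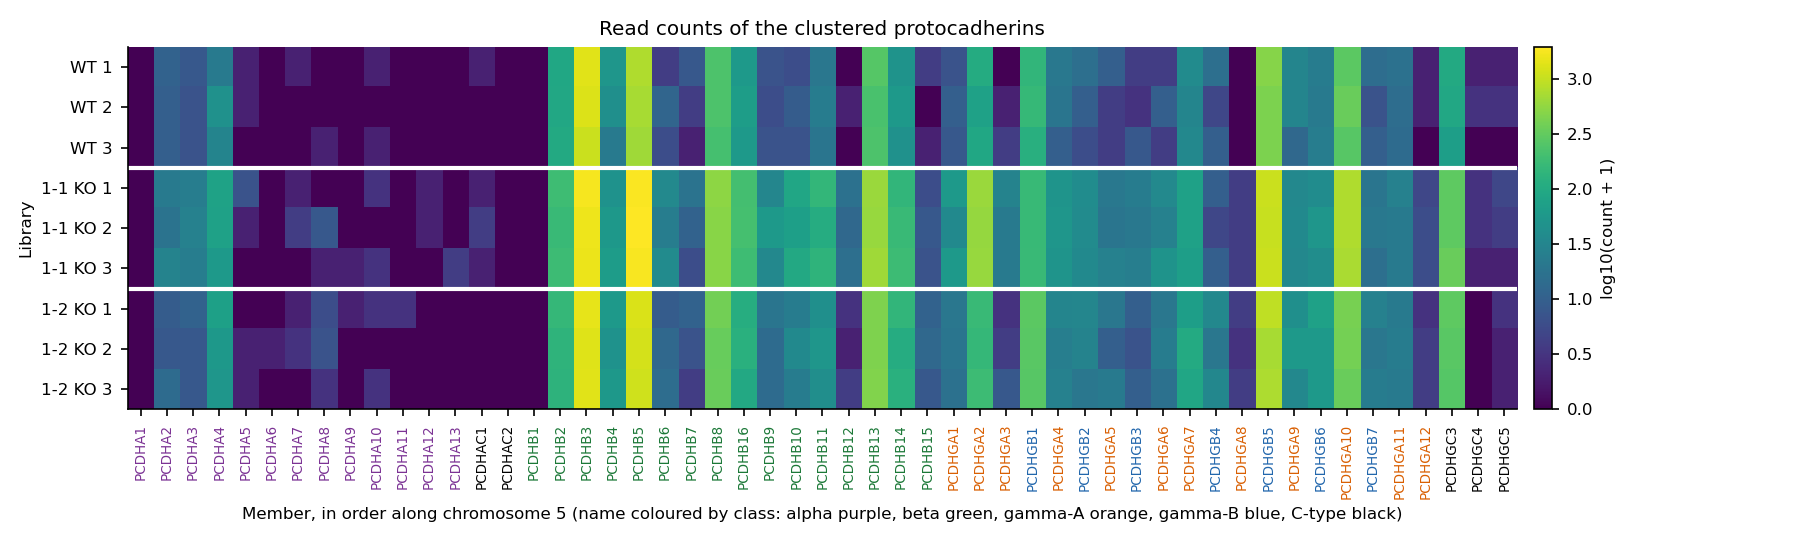
Read counts of all 53 members (columns, in order along chromosome 5, names coloured by class) in the 9 libraries (rows), as log10(count + 1). The alpha block on the left is dark apart from PCDHA2, PCDHA3 and PCDHA4, and the columns of PCDHB3, PCDHB5 and PCDHGB5 are the brightest in every line.

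The level of the clusters rested on few genes. Per kb, PCDHB3 had the highest mean over the 9 libraries (10.9 CPM per kb), followed by PCDHB5 (9.37), PCDHGB5 (7.19), PCDHB8 (3.67) and PCDHGA10 (2.76). In WT cells, PCDHB3 made up 31.2% of the summed CPM of the 53 members, and it was also the leading member in 1-2 KO cells (22.2%), while PCDHB5 led in 1-1 KO cells (20.8%). PCDHA4 held 63.3% of the alpha sum in WT, PCDHGB5 70% of the gamma-B sum, PCDHGA10 60.4% of the gamma-A sum and PCDHGC3 97.7% of the C-type sum. When total exon length was used in place of exclusive length, 4 of the top 5 and all of the top 10 genes were shared, and 10 of the 34 tested genes kept their rank.

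Clustered protocadherins were mostly upregulated in both knockout lines, more so in 1-1 KO cells. In 1-1 KO compared to WT, 28 of the 34 tested members were upregulated and 0 were downregulated (edgeR's quasi-likelihood test, adjusted p under 0.05 over 17207 genes), where 63.4% of all tested genes were called (32.5% up, 30.9% down). Their median log2 fold change was 1.34, against 0.01 for all tested genes, and 23 rose more than 2-fold, which 9.4% of all genes did. In 1-2 KO compared to WT, 24 were upregulated and 0 downregulated, where 54.4% of all genes were called (28.2% up, 26.2% down). The median was 0.78 against 0.02 for all genes, and 13 rose more than 2-fold, against 8.62% of all genes. Both comparisons use the same 3 WT libraries.

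The 3 libraries of 1-1 KO lay above all 3 WT libraries for 30 of the 34 members (35.2% of all genes were separated this way) and those of 1-2 KO for 24 (29.8%). The libraries of no member lay wholly below WT in either knockout. Some members passed the filter only with the 1-1 KO libraries, where they were high, such as PCDHA2, PCDHA3, PCDHB12, PCDHGA3, PCDHGA5 and PCDHGB3. Their calls in 1-1 KO, against either line, are therefore not independent of the filter. PCDHGB4 passed only with the 1-2 KO libraries, where it was high, and the same holds for its calls in 1-2 KO. With only 1-2 KO and WT in the fit, 28 members were tested and 21 of them were upregulated. In that fit 4278 of 16544 genes were upregulated, and 52.3% were called in either direction. When 10 or more counts were required in each of the 9 libraries, 19 members remained, and 15 of them were upregulated in each knockout. Among all 14481 genes that passed this stricter filter, 4974 were upregulated in 1-1 KO and 4003 in 1-2 KO. Called in either direction were 67.3% and 57.3%. Without 1-2 KO replicate 1, 28 members were upregulated in 1-1 KO and 21 in 1-2 KO, beside 5874 and 4693 of all 17540 tested genes. Without WT replicate 3 the counts were 28 and 23, beside 5610 and 4643 of 17650 genes.

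**Figure D2:**
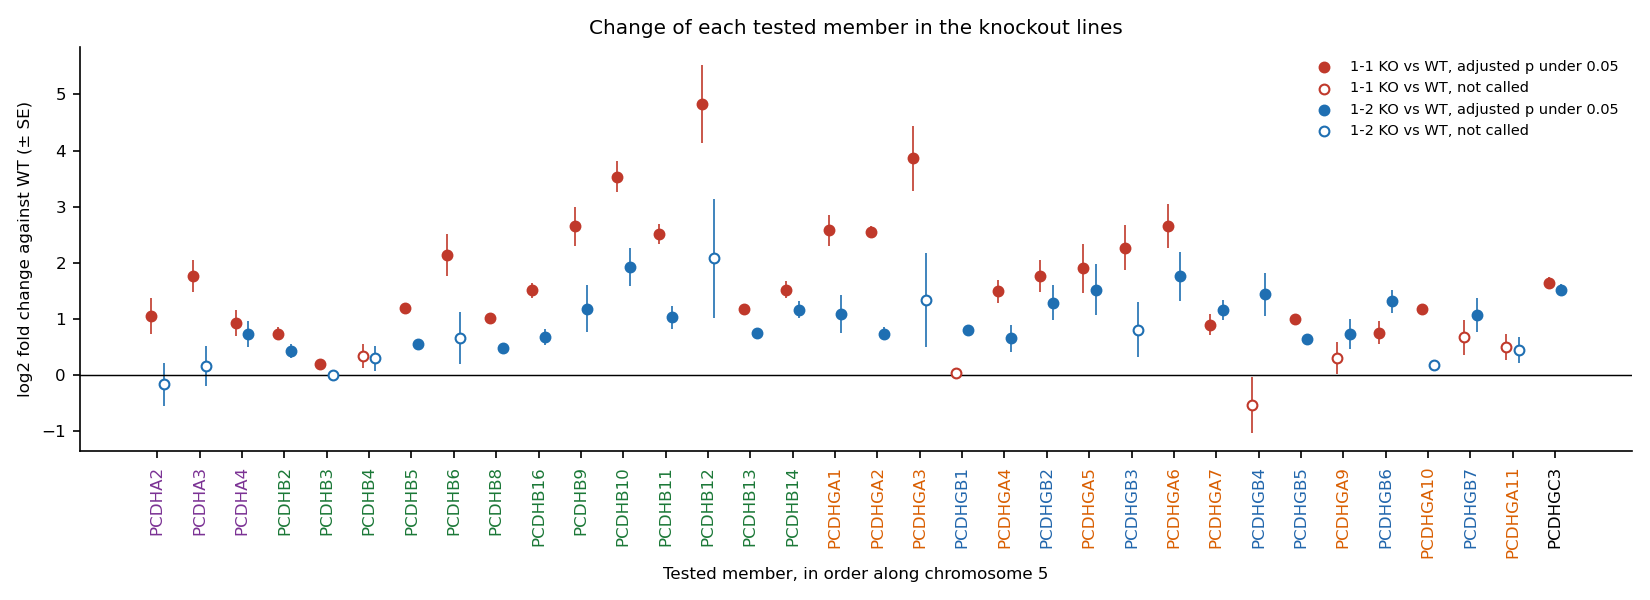
Log2 fold change against WT of the 34 tested members (horizontal axis, in order along chromosome 5) in 1-1 KO (red) and 1-2 KO (blue), with bars of 1 SE and open circles for members not called. Red points are highest in the middle of the beta cluster and at the start of the gamma cluster. Blue points lie above red ones for PCDHGB1, PCDHGA7, PCDHGB4, PCDHGA9, PCDHGB6 and PCDHGB7. The points of PCDHB12 and PCDHGA3 rest on at most 3 WT counts per library and are not bounds.

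The alpha genes were weakly expressed. PCDHA2 had 10, 9 and 9 counts in WT, 21, 17 and 29 in 1-1 KO, and 8, 7 and 13 in 1-2 KO. The 1-1 KO libraries stood above all others, while WT and 1-2 KO overlapped. Its log2 fold change in 1-1 KO was 1.06 ± 0.32 (SE, adjusted p = 0.0106), and the call was lost without 1-1 KO replicate 3 (0.81, adjusted p = 0.0608) and with DESeq2 (adjusted p = 0.0639). PCDHA3 had 7, 6 and 6 counts in WT, 24, 27 and 24 in 1-1 KO, and 10, 7 and 7 in 1-2 KO. It was likewise high in 1-1 KO only among these libraries, with a log2 fold change of 1.77 ± 0.28 (adjusted p = 8.05e-05) there and 0.17 ± 0.35 (adjusted p = 0.761) in 1-2 KO. Both PCDHA2 and PCDHA3 passed the filter through 1-1 KO, where they were high, so their calls are not independent of the filter.

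PCDHA4 was the alpha gene that rose in both lines. It had 22, 45 and 30 counts in WT, 78, 75 and 59 in 1-1 KO, and 73, 56 and 53 in 1-2 KO, and neither knockout overlapped WT. The log2 fold change was 0.93 ± 0.23 (adjusted p = 0.00269) in 1-1 KO and 0.73 ± 0.23 (adjusted p = 0.0161) in 1-2 KO. The call in 1-2 KO was lost without WT replicate 1 (0.46, adjusted p = 0.0804) and without 1-2 KO replicate 1 (0.61, adjusted p = 0.0595).

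In the beta cluster, 12 of 13 tested genes were upregulated in 1-1 KO (median log2 fold change 1.51) and 9 of 13 in 1-2 KO (median 0.69). Among all tested genes, 32.5% and 28.2% were upregulated. The size of the change differed widely between beta neighbours. PCDHB3, the most abundant member, changed little. It had 1414, 1321 and 1080 counts in WT, 1768, 1618 and 1591 in 1-1 KO, and 1502, 1360 and 1414 in 1-2 KO, or 35 ± 0.68, 40 ± 1.52 and 35 ± 0.78 CPM (SD, n = 3). At 0.19 ± 0.04 on the log2 scale in 1-1 KO (adjusted p = 0.00165) it was the smallest beta change that was called. In 1-2 KO its log2 fold change was 0.001 (adjusted p = 0.988), with overlapping libraries.

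PCDHB5, which lies 2 genes further along, had 786, 728 and 677 counts in WT, 1901, 1970 and 1851 in 1-1 KO, and 1276, 1203 and 1126 in 1-2 KO. The 3 lines did not overlap, with means of 20.2 ± 1.10, 46.1 ± 1.60 and 29.5 ± 1.24 CPM. The log2 fold changes were 1.19 ± 0.05 (adjusted p = 2.46e-10) and 0.55 ± 0.06 (adjusted p = 1.11e-06). PCDHB13 followed the same order, with 266, 222 and 237 counts in WT, 621, 602 and 658 in 1-1 KO, and 458, 448 and 473 in 1-2 KO. Its log2 fold changes were 1.18 ± 0.09 and 0.76 ± 0.09 (adjusted p = 2.94e-08 and 4.48e-06). PCDHB8, which nearly shares the promoter stretch of PCDHB13, changed by 1.01 and 0.49.

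PCDHB12 was almost silent in WT, with 0, 1 and 0 counts, and had 16, 12 and 15 counts in 1-1 KO and 2, 1 and 3 in 1-2 KO. The 1-1 KO libraries stood far above the others, and the ratio of the summed libraries of 1-1 KO to WT was 37.7 (95% counting interval 6.41 to 1522, exact binomial). It was called in 1-1 KO (adjusted p = 3.02e-05) and not in 1-2 KO (adjusted p = 0.113). The genes just before it, PCDHB9, PCDHB10 and PCDHB11, also had large changes and are named here after their values were seen. PCDHB10 went from 5, 8 and 6 counts in WT to 87, 72 and 96 in 1-1 KO and 23, 36 and 23 in 1-2 KO, a step of 3.53 ± 0.27 and of 1.93 ± 0.33 on the log2 scale. The corresponding log2 fold changes were 2.65 and 1.19 for PCDHB9, and 2.52 and 1.03 for PCDHB11.

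The other beta genes lay between these cases. PCDHB2, PCDHB16 and PCDHB14 were upregulated in both lines, with log2 fold changes of 0.74, 1.51 and 1.52 in 1-1 KO and 0.43, 0.69 and 1.17 in 1-2 KO. PCDHB6 was upregulated in 1-1 KO (2.14 ± 0.38, adjusted p = 0.000207) and not called in 1-2 KO (0.66 ± 0.46, adjusted p = 0.243). PCDHB4 was the tested beta gene called in neither line, at 0.34 ± 0.22 (adjusted p = 0.189) and 0.30 ± 0.22 (adjusted p = 0.262).

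In the gamma cluster, the gamma-A and gamma-B genes alternate, and both subfamilies carry the same shared exons. Of the gamma-A genes, 8 of 10 tested were upregulated in 1-1 KO (median log2 fold change 1.70) and 7 of 10 in 1-2 KO (median 0.92). The shares over all tested genes were 32.5% and 28.2%. PCDHGA2 had 104, 76 and 91 counts in WT, 629, 589 and 609 in 1-1 KO, and 170, 157 and 182 in 1-2 KO, and the 3 lines did not overlap. It rose by 2.56 ± 0.11 on the log2 scale in 1-1 KO (adjusted p = 1.13e-10) and by 0.74 ± 0.12 in 1-2 KO (adjusted p = 0.000107). Its share of the gamma-A sum was 18.1% ± 3.4 in WT and 35.5% ± 0.5 in 1-1 KO (SD, n = 3). PCDHGA1 beside it changed by 2.58 and 1.09.

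PCDHGA3, the next gamma-A gene, had 0, 1 and 3 counts in WT, 29, 21 and 22 in 1-1 KO, and 2, 3 and 7 in 1-2 KO. It was called in 1-1 KO (adjusted p = 4.12e-05) and not in 1-2 KO (adjusted p = 0.191), and its fitted log2 fold change of 3.86 ± 0.57 rests on at most 3 WT counts per library. PCDHGA6 had 3, 9 and 3 counts in WT, 35, 27 and 48 in 1-1 KO, and 19, 23 and 16 in 1-2 KO. Both knockouts lay above WT, by 2.66 ± 0.39 (adjusted p = 3.35e-05) and 1.76 ± 0.43 (adjusted p = 0.00329) on the log2 scale. PCDHGA4 and PCDHGA5 were called in both lines as well, at 1.49 and 1.90 in 1-1 KO and 0.66 and 1.52 in 1-2 KO. PCDHGA5 passed the filter only with the 1-1 KO libraries.

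PCDHGA10, the most abundant gamma-A gene, had 291, 343 and 276 counts in WT, 798, 803 and 750 in 1-1 KO, and 412, 406 and 350 in 1-2 KO. The 1-1 KO libraries stood apart, at 1.17 ± 0.09 on the log2 scale (adjusted p = 3.06e-08). In 1-2 KO the libraries overlapped WT and the change of 0.19 ± 0.09 was not called (adjusted p = 0.0867), although it was called without WT replicate 2 (0.26, adjusted p = 0.0429), without 1-2 KO replicate 3 (0.25, adjusted p = 0.0378) and with library size alone as scaling (0.25, adjusted p = 0.0339).

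PCDHGA7 had 38, 31 and 34 counts in WT, 75, 75 and 70 in 1-1 KO, and 69, 101 and 88 in 1-2 KO. Both lines exceeded WT, by 0.90 ± 0.19 (adjusted p = 0.000719) and 1.16 ± 0.18 (adjusted p = 8.81e-05), and overlapped each other. PCDHGA9 had 31, 31 and 12 counts in WT, 34, 36 and 34 in 1-1 KO, and 43, 60 and 34 in 1-2 KO. It was called in 1-2 KO (0.73 ± 0.27, adjusted p = 0.0332) and not in 1-1 KO (0.31 ± 0.28, adjusted p = 0.357), while the knockouts themselves differed by 0.42 ± 0.25 (adjusted p = 0.157). The call in 1-2 KO was lost without WT replicate 3 (0.46, adjusted p = 0.133), without 1-2 KO replicate 2 (0.47, adjusted p = 0.174) and with DESeq2 (adjusted p = 0.0644). PCDHGA11 was called in neither line, at 0.51 ± 0.23 (adjusted p = 0.0932) and 0.45 ± 0.23 (adjusted p = 0.16).

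Of the gamma-B genes, 4 of 7 were upregulated in 1-1 KO (median log2 fold change 0.76) and 6 of 7 in 1-2 KO (median 1.08). Over all tested genes, 32.5% and 28.2% were upregulated. PCDHGB1 had 147, 162 and 119 counts in WT, 165, 167 and 169 in 1-1 KO, and 288, 283 and 270 in 1-2 KO. The WT and 1-1 KO libraries overlapped in CPM (3.93 ± 0.34 and 4.03 ± 0.12) and the 1-2 KO libraries lay above both (6.89 ± 0.19). The log2 fold change was 0.04 ± 0.10 in 1-1 KO (adjusted p = 0.751) and 0.81 ± 0.09 in 1-2 KO (adjusted p = 3.52e-06). PCDHGB4 had 15, 4 and 9 counts in WT, 9, 4 and 9 in 1-1 KO, and 34, 19 and 33 in 1-2 KO. It too stood out in 1-2 KO alone, at 1.44 ± 0.38 (adjusted p = 0.00533) against -0.53 ± 0.50 (adjusted p = 0.367) in 1-1 KO. PCDHGB4 passed the filter only with the 1-2 KO libraries, so its call is not independent of the filter.

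PCDHGB5, the most abundant gamma-B gene, had 503, 441 and 440 counts in WT, 1074, 1047 and 1065 in 1-1 KO, and 948, 727 and 772 in 1-2 KO. Both knockouts exceeded WT, by 1.01 ± 0.08 (adjusted p = 7.87e-08) and 0.65 ± 0.08 (adjusted p = 1.06e-05) on the log2 scale. Its promoter stretch was the one that nearly equals that of PCDHGB4. PCDHGB6 had 23, 21 and 24 counts in WT, 39, 53 and 40 in 1-1 KO, and 75, 57 and 59 in 1-2 KO. It rose by 0.76 ± 0.21 (adjusted p = 0.00606) and by 1.32 ± 0.20 (adjusted p = 6.47e-05), and the 3 lines did not overlap in CPM.

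PCDHGB3 had 3, 2 and 7 counts in WT, 23, 20 and 25 in 1-1 KO, and 9, 6 and 9 in 1-2 KO. Among these libraries it was high in 1-1 KO only, at 2.27 ± 0.40 (adjusted p = 0.000197) against 0.81 ± 0.49 (adjusted p = 0.182) in 1-2 KO, where it was called without WT replicate 3 (1.54, adjusted p = 0.0278). Like PCDHA3, it passed the filter through 1-1 KO. PCDHGB2 was called in both lines (1.76 and 1.29), and PCDHGB7 in 1-2 KO (1.08 ± 0.30, adjusted p = 0.00794) and not in 1-1 KO (0.67 ± 0.32, adjusted p = 0.0792).

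The C-type genes were represented by PCDHGC3. It had 100, 94 and 69 counts in WT, 296, 296 and 346 in 1-1 KO, and 299, 280 and 269 in 1-2 KO, or 2.40 ± 0.19, 7.56 ± 0.81 and 6.95 ± 0.21 CPM. Both knockouts stood well above WT, by 1.65 ± 0.11 (adjusted p = 8.07e-09) and 1.53 ± 0.11 (adjusted p = 2.51e-08) on the log2 scale, and they overlapped each other.

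When the knockouts were compared directly, 22 of the 34 tested members were lower and 3 higher in 1-2 KO than in 1-1 KO (65.3% of all tested genes were called, 33.1% higher and 32.2% lower), with a median log2 difference of -0.50 against 0.01 for all genes. Without 1-2 KO replicate 1, the counts were 22 lower and 3 higher, and likewise without WT replicate 3. The 3 higher members were all gamma-B genes: PCDHGB1 (0.77 ± 0.09, adjusted p = 3.06e-06), PCDHGB4 (1.97 ± 0.40, adjusted p = 0.000561) and PCDHGB6 (0.56 ± 0.18, adjusted p = 0.0131). The call of PCDHGB4 is not independent of the filter, which it passed through 1-2 KO. The call of PCDHGB6 was lost without 1-1 KO replicate 1 (adjusted p = 0.0635), without 1-1 KO replicate 3 (adjusted p = 0.0502), without 1-2 KO replicate 1 (adjusted p = 0.0597) and with DESeq2 (adjusted p = 0.0703). PCDHGB3 and PCDHGB5 were lower (-1.46 ± 0.34 and -0.36 ± 0.08), so that the gamma-B genes did not move as a group.

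Of the beta genes, 12 of 13 were lower in 1-2 KO than in 1-1 KO and 0 were higher, with PCDHB4 not called. Among all tested genes, 32.2% were lower. Of the gamma-A genes, 6 of 10 were lower and 0 higher, among them PCDHGA2 (-1.82 ± 0.10, adjusted p = 1.09e-09), PCDHGA10 (-0.98 ± 0.08, adjusted p = 1.22e-07) and PCDHGA6 (-0.89 ± 0.29, adjusted p = 0.0155). PCDHGA6 lost its call without 1-1 KO replicate 3 (-0.64, adjusted p = 0.0968), without 1-2 KO replicate 3 (-0.78, adjusted p = 0.0551) and with DESeq2 (adjusted p = 0.0556). PCDHGA7 was not called (0.26 ± 0.16, adjusted p = 0.174) except without 1-2 KO replicate 1 (0.42, adjusted p = 0.0223). PCDHA2 and PCDHA3 were lower (-1.22 ± 0.32 and -1.60 ± 0.27), and PCDHA4 and PCDHGC3 were not called (-0.19 ± 0.21 and -0.12 ± 0.09).

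**Figure D3:**
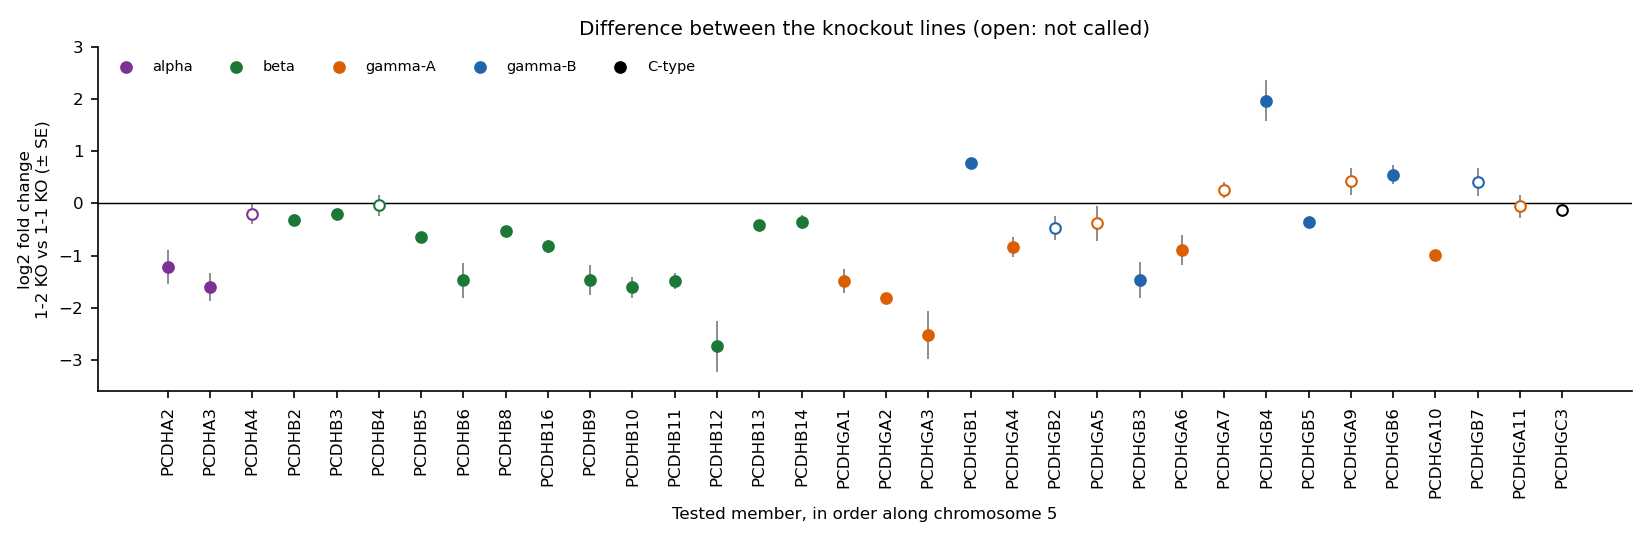
Log2 fold change of 1-2 KO against 1-1 KO for the 34 tested members (horizontal axis, in order along chromosome 5), coloured by class, with bars of 1 SE and open circles for members not called. The filled points above 0 are PCDHGB1, PCDHGB4 and PCDHGB6.

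Summed over all 53 members, the clusters held 112 ± 2.92 CPM in WT, 221 ± 1.23 in 1-1 KO and 158 ± 4.19 in 1-2 KO. The classes took unequal parts in this. The ratio of 1-1 KO to WT was 2.22 for the alpha sum, 1.79 for beta, 2.98 for gamma-A, 1.80 for gamma-B and 3.13 for C-type, and that of 1-2 KO to WT was 1.53, 1.29, 1.42, 1.68 and 2.83 in the same order. In every class the 3 libraries of each knockout lay above all WT libraries. The gamma-A sum was 13.9 ± 0.72 CPM in WT, 41.4 ± 0.32 in 1-1 KO and 19.8 ± 0.94 in 1-2 KO, and the gamma-B sum was 18.2 ± 1.12, 32.8 ± 0.50 and 30.6 ± 2.61. In 1-1 KO the gamma-A sum thus exceeded the gamma-B sum, and in the other lines it was below it.

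The beta sum was 76.2 ± 1.65, 136 ± 0.17 and 98.3 ± 1.61 CPM, and its share of all members was 67.9% ± 0.42 in WT, 61.6% ± 0.31 in 1-1 KO and 62.3% ± 0.64 in 1-2 KO. The alpha sum was 1.39 ± 0.30, 3.08 ± 0.14 and 2.13 ± 0.26 CPM, and the C-type sum was 2.46 ± 0.24, 7.70 ± 0.75 and 6.98 ± 0.21 CPM. Per kb of exclusive exon in WT, the order was beta (1.19 CPM per kb), gamma-B (0.895), gamma-A (0.312), C-type (0.151) and alpha (0.0237). In 1-2 KO the same order held, but beta (1.53 ± 0.03) lay within 1 SD of gamma-B, and C-type (0.427 ± 0.01) within 1 SD of gamma-A (0.444 ± 0.02).

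**Figure D4:**
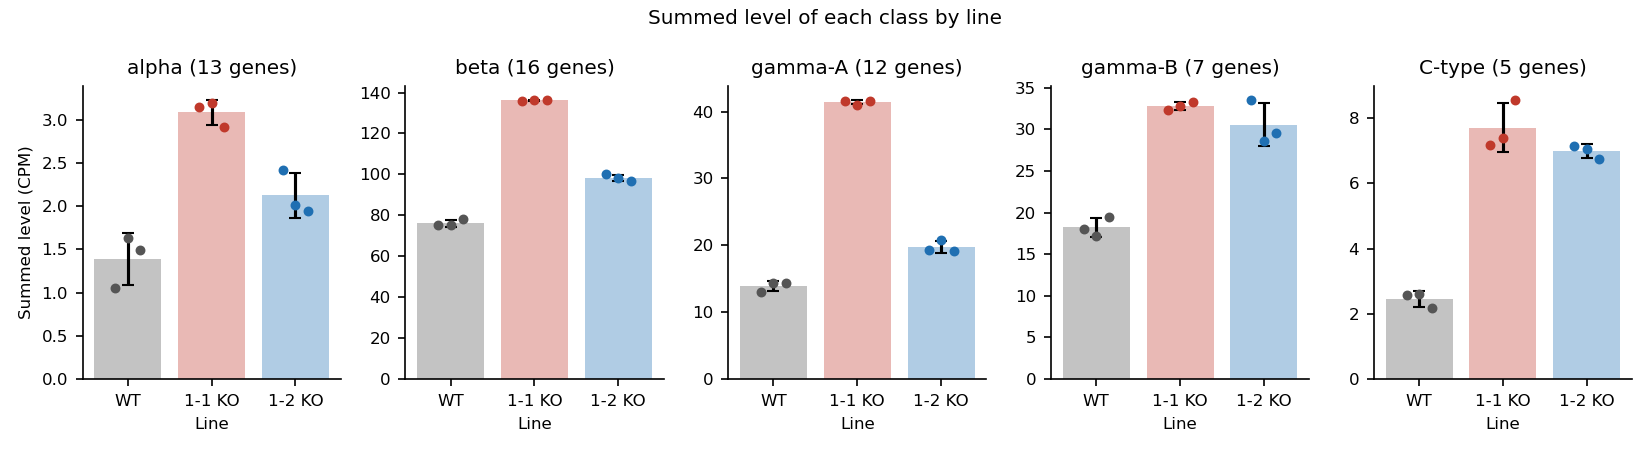
Summed level (CPM, linear axes from 0) of the members of each class in WT (grey), 1-1 KO (red) and 1-2 KO (blue). Bars are means of 3 libraries with 1 SD, and points are libraries. Gamma-A in 1-1 KO stands at 41.4 CPM against 13.9 in WT, whereas gamma-B and C-type are nearly level between the knockouts.

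The genes beside the clusters were compared in the same fit, with the 25 nearest tested genes on each side. In 1-1 KO compared to WT, the upstream genes had a median log2 fold change of 0.30 (16 upregulated, 2 downregulated) and the downstream genes -0.17 (2 upregulated, 12 downregulated). In 1-2 KO the medians were 0.27 (16 and 2) and 0.24 (15 and 2). Counting both sides, 31 of the 50 flanking genes had an upward call in 1-2 KO and 4 a downward call. The shares for all tested genes there were 28.2% and 26.2%. Upward calls in 1-2 KO thus prevailed beside the clusters too, and were not limited to the members (24 of 34 up, 0 down). In 1-1 KO the flanking calls were 18 up and 14 down, beside 32.5% and 30.9% of all genes. Over both sides together, the median was 0.11 in 1-1 KO and 0.25 in 1-2 KO, and it was -0.13 and -0.03 over the 787 tested non-member genes of chromosome 5. Relative to the median of both sides, the members had a median of 1.23 in 1-1 KO, with 32 of 34 above it, and 0.53 in 1-2 KO, with 30 of 34 above it. In 1-1 KO, 20 members exceeded the largest change of any of the 50 flanking genes (1.09). In 1-2 KO, 0 members exceeded the largest flanking change, that of PPP2R2B, the farthest gene downstream (3.63). The next largest flanking change was that of ARAP3 (1.66). Only PCDHB10 (1.93), PCDHB12 (2.08, not called) and PCDHGA6 (1.76) exceeded it.

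Within the span of the clusters lie 4 other tested genes. TAF7, which encodes a subunit of the general transcription factor TFIID and stands on the opposite strand between the beta and gamma clusters, rose by 0.21 (adjusted p = 0.000191) in 1-1 KO and 0.39 (adjusted p = 6.45e-07) in 1-2 KO. The lncRNA ENSG00000272070, just before PCDHGA1, had 7, 7 and 7 counts in WT, 50, 66 and 42 in 1-1 KO, and 10, 16 and 16 in 1-2 KO. The 1-1 KO libraries stood far above the others, and its change of 2.70 in 1-1 KO (adjusted p = 1.77e-06) was close to that of PCDHGA1. In 1-2 KO its change of 0.82 was not called (adjusted p = 0.0743). The lncRNAs ENSG00000279472 and ENSG00000272108 rose by 1.36 and 0.61 in 1-1 KO (adjusted p = 0.00014 and 0.0171). In 1-2 KO the first rose by 0.79 (adjusted p = 0.0149) and the second was not called (-0.05, adjusted p = 0.864). ENSG00000279472 (chr5:141177849-141182369) overlaps PCDHB8 (chr5:141177790-141180539), so its change may not be independent of that gene. The other 13 genes on the opposite strand within the span had at most 10 counts in any library, and the 6 protocadherin pseudogenes also at most 10.

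**Figure D5:**
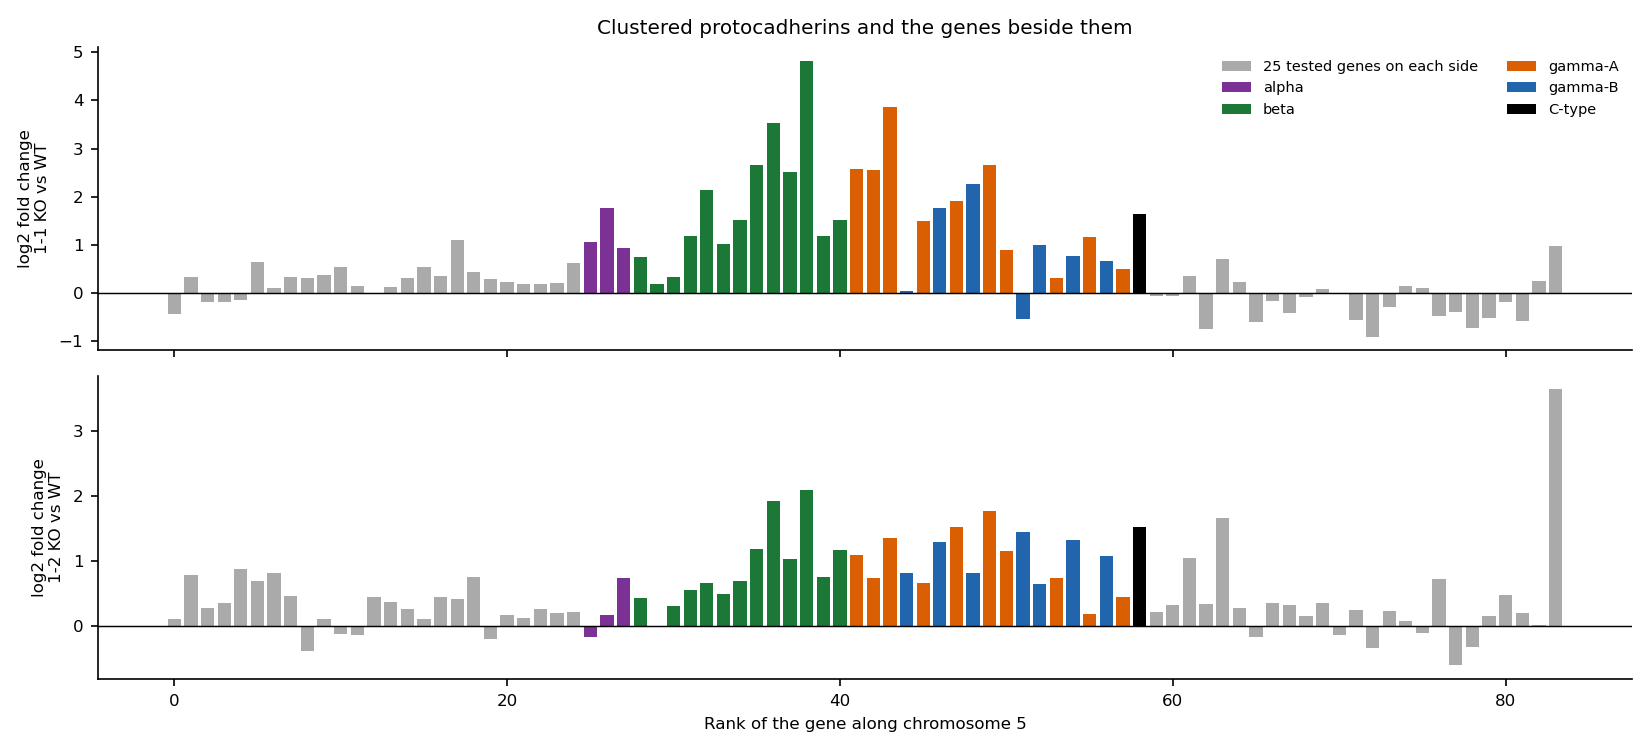
Log2 fold change in 1-1 KO (upper panel) and 1-2 KO (lower panel) against WT for the 34 tested members, coloured by class, and the 25 tested genes on each side in grey, by rank along chromosome 5. The members form a raised block in the upper panel with an edge at either end, and in the lower panel the block is lower and the last grey gene, PPP2R2B, is the tallest bar.

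Genes known to act on protocadherin promoters were taken as a list of 26, of which all were tested. They included CTCF, cohesin and its loaders, DNA methyltransferases and TET enzymes. In 1-1 KO 13 were upregulated and 10 downregulated (median log2 fold change 0.11), and in 1-2 KO 10 and 6 (median 0.06), where 63.4% and 54.4% of all tested genes were called. CTCF itself was not called in either line (-0.02 ± 0.04, adjusted p = 0.664, and 0.05 ± 0.04, adjusted p = 0.4). In 1-1 KO the smallest adjusted p-values belonged to SETDB1, a histone H3K9 methyltransferase, which was downregulated by -0.78 ± 0.05 (53.2 ± 1.84 to 30.9 ± 1.07 CPM, adjusted p = 8.89e-09), and to TET2, an enzyme that oxidizes methylated cytosine, which was upregulated by 0.85 ± 0.06 (19.2 ± 1.30 to 34.7 ± 0.42 CPM, adjusted p = 1.21e-08). In 1-2 KO they belonged to NIPBL, the cohesin loader, at -0.74 ± 0.04 (280.2 ± 10.7 to 168 ± 5.42 CPM, adjusted p = 1.15e-09) and to the methyltransferase gene DNMT3B, at 0.71 ± 0.06 (17.2 ± 1.07 to 28.1 ± 1.28 CPM, adjusted p = 1.84e-07). Each was also called in the same direction in the other line. SETDB1 and TET2 changed by -0.46 and 0.25 in 1-2 KO (adjusted p = 2.38e-06 and 0.00217). NIPBL and DNMT3B changed by -0.13 and 0.40 in 1-1 KO (adjusted p = 0.00766 and 4.07e-05).

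A second list held 27 genes that cleave protocadherins or act beneath them, such as ADAM10, gamma-secretase, the focal adhesion kinases PTK2 and PTK2B and the WAVE complex, of which 26 were tested. In 1-1 KO 9 were upregulated and 12 downregulated (median -0.09), and in 1-2 KO 5 and 10 (median -0.03), beside the same 63.4% and 54.4% of all genes. The smallest adjusted p-values were those of the WAVE complex genes CYFIP1 (-0.58 ± 0.04, adjusted p = 1.91e-08) and ABI2 (0.41 ± 0.04, adjusted p = 1.63e-07) in 1-1 KO. In 1-2 KO the smallest was that of CYFIP2, another WAVE subunit, which rose from 4.12 ± 0.41 to 37.8 ± 2.45 CPM (3.19 ± 0.09, adjusted p = 1.91e-12). Of 12 protocadherins outside the clusters, 6 were tested, with 3 upregulated and 0 downregulated in 1-1 KO and 4 and 1 in 1-2 KO. PCDH17 rose by 1.22 ± 0.04 (adjusted p = 3.84e-12) in 1-1 KO and fell by 0.85 (adjusted p = 3.42e-10) in 1-2 KO, and PCDH9 rose in both (0.47 ± 0.05, adjusted p = 1.49e-06, and 1.56 ± 0.05, adjusted p = 5.60e-12).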

How the data were processed

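The authors mapped the paired reads to hg38 with STAR and assigned them to genes with featureCounts. The deposited table holds the resulting raw read counts, not normalized. Whether the counting used the strand, and how shared reads were treated, is not given in the sources used here. Gene symbols, positions and exons came from GENCODE 44 (GRCh38), in which 60463 of 60664 identifiers were found. The others held 0.0192% of the counts. Promoter windows came from RefSeq (GRCh38.p14).

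Counts were tested with edgeR 4.0.16 in R 4.3.3: filterByExpr (minimum count 10, minimum total 15), TMM scaling, and 1 quasi-likelihood fit of all 9 libraries with a term per line, with p-values adjusted by Benjamini-Hochberg over 17207 genes in each of 3 comparisons. Genes were called upregulated or downregulated below an adjusted p of 0.05. The SE of a log2 fold change is its size divided by the square root of F. CPM were scaled with TMM, and sums over members carry no test. The biological coefficient of variation was 5.55%, and counts of libraries of 1 line differed by a chi-square per degree of freedom of 2.07 to 16.1. The steps were tested on simulated data. Figures were drawn with matplotlib 3.10.9 in Python 3.11.15.

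Library-by-library values are given for the 3 most abundant tested members of each class and for those with the largest and smallest change in each knockout. Members, gene lists and tests were chosen with earlier results of these data known. From the lists, the 2 genes with the smallest adjusted p per knockout are named, apart from 1 that is not reported here, and CTCF was added. Alternatives were DESeq2 1.42.0, its size factors, library size alone, other filters, only the 2 groups compared, the replicate number as a term, an adjusted p under 0.01, total exon length, and leaving out each library.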

Additional observations from a re-analysis of the deposited data

How the results depend on the processing

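Counts of upregulated members ranged from 27 to 29 in 1-1 KO and from 20 to 24 in 1-2 KO when single libraries were left out, and in the direct comparison from 2 to 3 higher and from 19 to 22 lower. With DESeq2 they were 27, 21, and 2 and 19. With at least 10 counts in every library, 19 members were tested, and the counts were 15, 15, and 2 and 11. Without a filter, 50 members were tested and 32 and 26 were upregulated, and with an adjusted p under 0.01 the counts were 27 and 18. No member was called downregulated against WT in these runs. Scaling by library size alone turned the split over all genes to 6211 up and 4713 down in 1-1 KO and to 5729 and 3803 in 1-2 KO, from 5600 and 5315 and from 4844 and 4511, with 28 and 25 members upregulated. It moved the beta sum to 74.3 CPM in WT and 137.7 in 1-1 KO and the gamma-A sum in 1-1 KO to 41.9, and DESeq2's size factors moved the beta sum in 1-1 KO to 135.8, each by more than the small SD between libraries. Changes near 0 turned sign without being called. When single libraries were left out, PCDHGB1 in 1-1 KO ranged from -0.0106 (without WT replicate 1) to 0.11, and PCDHB3 in 1-2 KO from -0.034 to 0.0196. PCDHB3 in 1-2 KO was at -0.0082 with DESeq2, -0.0080 with its size factors, -0.0134 without a filter, -0.0095 with only the 2 groups compared, and at -0.034, -0.012 and -0.0030 without WT replicate 3, 1-2 KO replicate 1 and 1-2 KO replicate 3. For the 19 members that the naming rule selects, 909 of 942 alternative values kept direction and call. The replicate numbers were not shown to pair the libraries: same-numbered libraries had deviations correlated between -0.387 and 0.189, and 3 of 18 comparisons of a library with another line were highest at its own number. With the replicate number as a block, 28 and 24 members were upregulated and, in the direct comparison, 3 were higher and 22 lower, as without the block. The cause of these shifts was not tested. Low counts limit 19 members to a description.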
